A study of Mus musculus with 3 samples.

Results

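Erythroid cells were examined in 3 single-cell libraries of mouse liver. A barcode was taken as erythroid when at least 5% of its UMIs came from the adult hemoglobin genes Hba-a1, Hba-a2, Hbb-bs and Hbb-bt and at most 30% were mitochondrial. A UMI is a molecular tag that counts 1 captured RNA molecule. The members were thus chosen by their own hemoglobin UMIs, and every difference between them and other barcodes is given as a description. They numbered 771 of 36990 barcodes, with 312 of 11207 kept barcodes in the control library, 246 of 12983 in the high-fat diet library and 213 of 12761 in the CCl4 library.

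All mice were wild-type male C57BL/6 (C57BL/6J in the paper's methods), aged 8 weeks at the start. Control mice received no treatment under standard conditions. The high-fat diet (HFD) group received 60% of its kcal as fat for 4 months, and the CCl4 group received chow for 3 months and then 0.1 mL of 10% carbon tetrachloride (CCl4), a liver toxin, into the peritoneum 2 times a week for 4 weeks. Livers were perfused with collagenase, hepatocytes were pelleted, nonparenchymal cells were purified over Percoll, and the fractions were mixed 1:1. Cells of 2 mice were pooled in each library, so that a condition was 1 library and no test between conditions could be made. Total UMIs were 49613255 in the control library, 34985786 in HFD and 34061186 with CCl4. Perfusion, gradient and mixing set which blood cells reached a library, so shares of barcodes do not measure blood content.

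Red cells arise from nucleated precursors in the marrow, which divide under erythropoietin, switch on globin, heme and membrane genes through factors such as GATA1 and KLF1, and then expel the nucleus. The enucleated reticulocyte keeps a shrinking pool of RNA, mostly alpha and beta globin, while it clears its organelles and ubiquitin-tagged proteins. In the adult mouse, most red cells in the liver are passing through with the blood.

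The promoter stretches of the 4 genes that chose the members, of Alas2, the erythroid enzyme of the first step of heme synthesis, and of Bpgm, a red cell enzyme of glycolysis, are shown because the counting of the globin copies and the levels of Alas2 and Bpgm recur below. Each is the 120 bases before the gene's start in RefSeq (GRCm38.p6), read 5′ to 3′ on the gene's strand. Capitals mark AGATAA or TGATAA, letters that GATA factors bind, and CACCC, letters of the box that KLF factors bind, on either strand.
Hba-a1 (chr11:32283552-32283671, plus strand): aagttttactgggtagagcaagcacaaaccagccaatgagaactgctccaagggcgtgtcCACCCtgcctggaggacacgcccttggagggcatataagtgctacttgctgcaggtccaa
Hba-a2 (chr11:32296372-32296491, plus strand): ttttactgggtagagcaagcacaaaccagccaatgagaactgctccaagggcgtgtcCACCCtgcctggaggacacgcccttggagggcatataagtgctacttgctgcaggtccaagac
Hbb-bs (chr7:103827929-103828048, minus strand): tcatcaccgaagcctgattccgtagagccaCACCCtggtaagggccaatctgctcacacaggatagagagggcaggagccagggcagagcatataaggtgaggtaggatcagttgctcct
Hbb-bt (chr7:103813924-103814043, minus strand): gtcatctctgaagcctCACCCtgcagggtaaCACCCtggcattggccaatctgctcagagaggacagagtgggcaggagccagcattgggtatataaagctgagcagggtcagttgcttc
Alas2 (chrX:150547297-150547416, plus strand): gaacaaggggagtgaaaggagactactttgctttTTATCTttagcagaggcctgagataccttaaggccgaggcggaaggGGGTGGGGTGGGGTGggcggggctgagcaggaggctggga
Bpgm (chr6:34476236-34476355, plus strand): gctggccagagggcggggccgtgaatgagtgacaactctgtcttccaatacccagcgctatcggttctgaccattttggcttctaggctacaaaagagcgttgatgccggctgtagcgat

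CACCC stood in 5 of the 6 stretches, in all but that of Bpgm, and in 31.7% of the 32851 promoter stretches of this length. A GATA match stood in the Alas2 stretch alone, and in 7.63% of all. A match describes letters and not a bound site. The 2 alpha promoters were identical over the 117 bases that align, while the 2 beta promoters matched at 77.1% of aligned bases. In the GENCODE transcripts the last 200 bases, where 3′ libraries are read, held 1 mismatch and 32 gap positions between Hba-a1 and Hba-a2, and 36 mismatches and 6 gap positions between Hbb-bs and Hbb-bt. With 183 bases of the alpha copies identical, the split between them is uncertain, and the sum of both was used where possible.

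Free hemoglobin RNA was low in every library. Barcodes outside the rule carried 0.0347% hemoglobin UMIs in the control library, 0.0540% in HFD and 0.0323% with CCl4, and their median was 0 UMIs. In those libraries 61.9%, 74.1% and 85.7% of them had 0 hemoglobin UMIs. T cell barcodes, with at least 2 UMIs of the Cd3d, Cd3e and Cd3g genes of the T cell receptor complex, carried 0.0382%, 0.0569% and 0.0435%. B cell barcodes, with at least 2 UMIs of Cd79a, Cd79b and Ms4a1, carried 0.0636%, 0.0699% and 0.0607%. Neutrophil barcodes, with at least 1% of UMIs from S100a8, S100a9 and Retnlg, carried 0.0366%, 0.0775% and 0.00337%, the last on 4 UMIs in 58 barcodes. The level taken as free RNA below, that of T cell barcodes, thus depends on the barcodes used. The value outside the rule rests on the cut and on few barcodes: with the cut at 2% it was 0.0213%, 0.0228% and 0.0180%, and 2990 of the 16883 UMIs outside the rule in the control library came from 37 barcodes with 3 or more of 8 erythroid genes. The members held 93.9%, 75.9% and 84.8% of each library's hemoglobin UMIs. The lowest members stood at 5.00%, 5.01% and 5.15%, and the highest barcodes left outside at 4.85%, 4.97% and 4.96%.

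Members made up 2.78% of kept control barcodes (95% exact Clopper-Pearson interval 2.49 to 3.11), 1.89% in HFD (1.67 to 2.14) and 1.67% with CCl4 (1.45 to 1.91). With the cut at 10% the shares were 2.33%, 0.709% and 1.06%, so that the HFD value and its place above CCl4 rest on members near the cut. All intervals here cover counting error only, and not the spread between mice. The libraries also differed in how much hemoglobin a member held, the value by which members were chosen. The hemoglobin share of a control member ranged from 5.00% to 77.8% with a median of 28.2%, against a median of 8.63% and a highest value of 37.0% in HFD, and 11.8% and 39.2% with CCl4. In the control library 108 members had 50% or more, 90 had 20 to 50% and 114 had 5 to 20%. In HFD 0 of 246 members reached 50%, which allows a share of up to 1.22%, and with CCl4 0 of 213, which allows up to 1.41%. Hemoglobin UMIs per member had a median of 878.5 in the control library (111 to 1897), 225.5 in HFD (97 to 801) and 275 with CCl4 (91 to 712), so the ranges overlapped while the medians stood apart. Deposited barcodes had at least 1629, 1827 and 1671 UMIs, and cells below those totals were not analysed here.

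**Figure D1:**
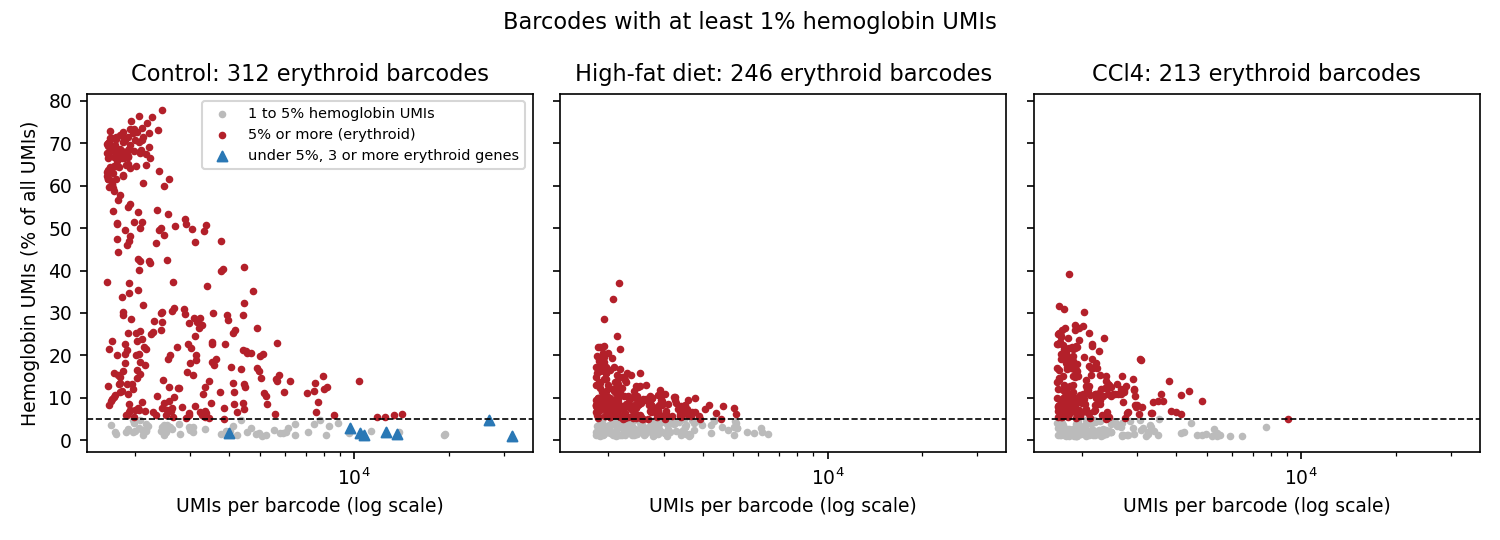
Hemoglobin UMIs as a percent of all UMIs (vertical axis) against UMIs per barcode (horizontal, log scale) for every barcode with at least 1% in the 3 libraries, with the 5% line dashed. Control members reach 77.8%, with the highest shares near the lowest totals, while the other libraries end at 37.0% and 39.2%; triangles are the 8 barcodes under 5% with 3 or more of 8 erythroid genes.

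The alpha share of the hemoglobin RNA was similar between libraries, while the beta globins were split unevenly among barcodes. Alpha globin gave 31.7% of hemoglobin UMIs in control members, 30.9% in HFD and 31.5% with CCl4. In control members Hbb-bs, the more abundant adult beta globin, gave 54.9%, Hba-a1 17.6%, Hba-a2 14.1% and Hbb-bt, the second adult beta globin, 13.4%. As a percent of beta globin, Hbb-bt was 20.8% in control members with 20 to 50% hemoglobin and 20.4% in those with 50% or more, but 15.3% (14.9 to 15.7) in those with 5 to 20%. Barcodes of that last class were uneven, with a median Hbb-bt share of 7.91% and quartiles of 3.20% and 18.9%, against a median of 17.6% in the same class in HFD. In T cell barcodes, taken as the level of free RNA, Hbb-bt was 11.0% of beta globin in the control library, 11.3% in HFD and 8.73% with CCl4. The part of free RNA in the lower class was not tested. A list of 6 other globin genes, which holds the theta globins Hbq1a and Hbq1b beside embryonic ones, gave 27 UMIs in control members. Of these 14 came from Hbq1b, so the sum is not read as embryonic globin. Hbb-y, the embryonic beta-like globin, gave 0.

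**Figure D2:**
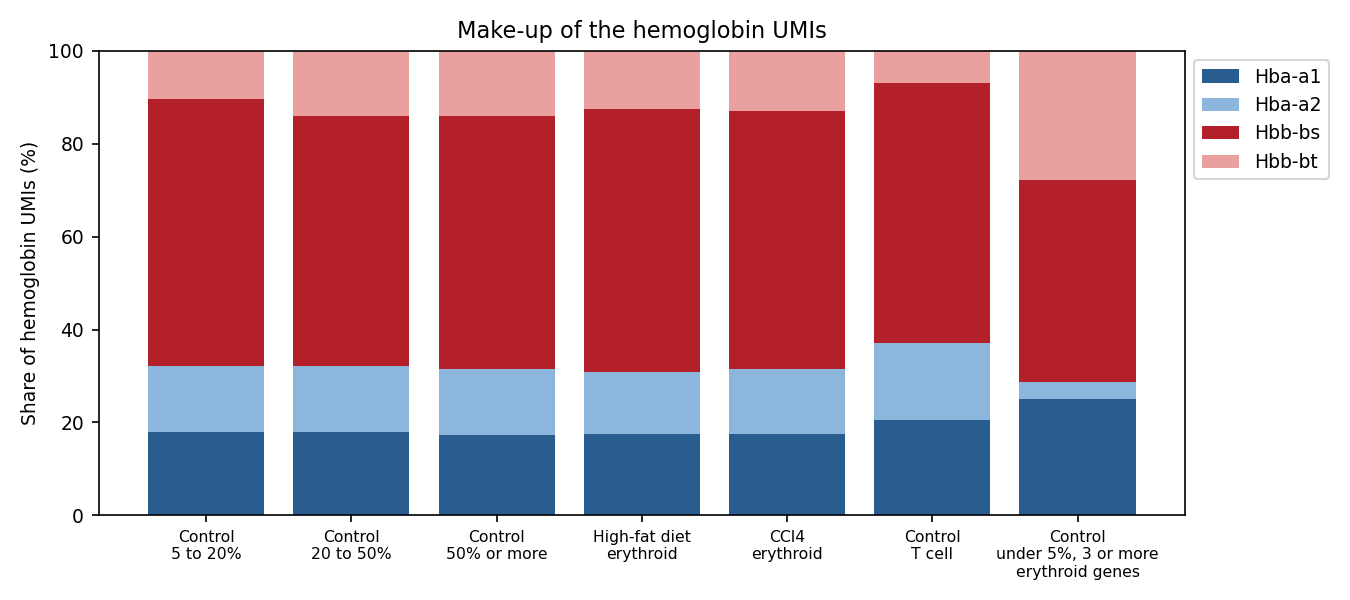
Share of hemoglobin UMIs (%) from each adult hemoglobin gene, in control members by hemoglobin share, in members of the other libraries, in control T cell barcodes and in 37 control barcodes outside the rule. Alpha globin stays between 30.9% and 32.1% in the 5 erythroid bars, and the last bar holds more Hbb-bt.

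The members carried genes of late red cells. In the control library Alas2 stood at 834 CPM in the members and 29.9 CPM in other barcodes, and Bpgm, which makes the 2,3-bisphosphoglycerate that lowers the oxygen affinity of hemoglobin, at 713 and 15.7 CPM. CPM here are counts per 1000000 UMIs outside the 4 hemoglobin genes, and 3′ counting gives UMIs that do not grow with gene length. A UMI of Alas2 was found in 71.5% of control members (median 2159.5 UMIs) and 4.40% of T cell barcodes (median 2457), and one of Bpgm in 66.3% and 4.96%. Slc4a1, the band 3 anion exchanger, was found in 13.1% of members and 0 of 1592 T cell barcodes, which allows up to 0.188%. After thinning each barcode to 1000 UMIs, a depth that left out no barcode, Alas2 was in 44.1% and 1.38% and Slc4a1 in 6.72% and 0. In HFD Bpgm was found in 51.2% of members and Slc4a1 in 4.88%, and with CCl4 in 48.4% and 5.16%, against 5.57% and 2.69% of T cell barcodes for Bpgm and 0 for Slc4a1. At least 1 of the 8 genes Slc4a1, Bpgm, Alas2, Klf1, Gata1, Epb42, Rhag and Car2 was found in 84.3% of control members, 69.9% of HFD members and 73.7% of CCl4 members, and in 22.02%, 14.3% and 13.8% of the other barcodes, so that 49, 74 and 56 members had hemoglobin but none of them.

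Against the other control barcodes, 66 of 3238 genes with at least 50 CPM in either sum were 2-fold or more higher in the members (2.04%) and 21 were lower (0.649%), on the scale of CPM plus 5. Since the members were chosen on the same barcodes, nothing is read from those counts. Scaled to all UMIs, hemoglobin included, they were 23 higher and 163 lower. Of the 20 genes that stood highest, by ratio of CPM plus 5 and presence in at least 10% of members, 18 are named here. On that scale Bpgm (34.7-fold) and Alas2 (24.0-fold) were the first of these, and in plain CPM their ratios were 45.5 and 27.9. The named genes included the membrane genes Slc4a1 (84.4 against 1.87 CPM, a ratio of 45.1 in plain CPM) and Epb41, which encodes protein 4.1 of the membrane skeleton. Another was Slc25a37, the mitoferrin that brings iron into mitochondria. Of the 91 Slc4a1 UMIs outside the rule, 84 came from the 37 barcodes named above, and without the 8% of barcodes with the most UMIs the ratio was 138. Genes of protein and organelle clearance among them were the ubiquitin-conjugating enzymes Ube2o and Ube2l6, the ligases Mkrn1 and Marchf2, and Bnip3l, a receptor for the removal of mitochondria. The others were Tent5c, Rsad2, Apol11b, Cdr2, Cd24a, Ccndbp1, Dcaf12 and Isg20, of which Rsad2 and Isg20 are known as interferon-responsive antiviral genes.

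By group, beside 2.04% of all genes tested, 5 of 6 tested genes of the red cell membrane and skeleton were 2-fold or more higher in control members, 8 of 16 of reticulocyte remodelling, 3 of 8 of heme synthesis and transport, and 3 of 11 of iron uptake and storage. For red cell metabolism and antioxidants it was 1 of 19, for the cell cycle 1 of 9, and for erythroid transcription factors and erythropoietin signalling 0 of 3 and 0 of 5. Over the 7 lists other than the cell cycle 20 of 68 genes were higher and 0 lower, with a median log2 ratio of 0.37 against 0.02 over all genes tested. The counts were smaller in the other libraries. In HFD members 8 of 56 were higher and 0 lower (median 0.08), beside 0.528% higher of all genes tested. With CCl4 14 of 60 were higher and 0 lower (median 0.22), beside 1.12%.

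Several genes of nucleated precursors had 0 UMIs in control members. Klf1, Rhag (the Rh-associated glycoprotein), Ermap, Rhd, Tal1, Gfi1b and Epor (the erythropoietin receptor) gave 0 UMIs in the 312 control members. Gata1 gave 1 UMI and Car1 2. Mki67, a marker of dividing cells, gave 15 UMIs, or 23.5 CPM against 39.8 CPM in other barcodes, and Tfrc, the transferrin receptor, 24 UMIs, or 37.5 against 26.6 CPM. The 37 control barcodes outside the rule with 3 or more of the 8 erythroid genes were a set formed after its values were seen. For a gene with 0 UMIs the control members with a UMI could make up as much as 0.962%. The genes at 0 were rare in the whole control library, from 32 UMIs (Epor) to 202 (Tal1). In HFD members Rhag, Rhd and Tal1 gave 1 UMI each, and with CCl4 Rhag, Ermap, Rhd and Tal1 gave 1 each. The nuclear RNA Malat1, added after its values were seen, was found in 78.2% of control members and 100% of T cell barcodes, in 64.2% and 99.5% in HFD, and in 77.9% and 99.8% with CCl4. Thinned to 1000 UMIs, the control values were 63.3% and 99.8%.

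Within the control library the members were compared by hemoglobin share, with the 108 at 50% or more against the 114 at 5 to 20%. Both classes came from the hemoglobin UMIs of the same barcodes. Of 3603 genes, 483 were 2-fold or more higher at the high share (13.4%) and 925 lower (25.7%). The high class had 72850 UMIs outside hemoglobin, on which 3 UMIs equal 41.2 CPM, and 210 of the 925 had 0 UMIs there. With such genes set to 3 UMIs, 765 were 2-fold lower. Scaled to all UMIs, 43 were higher and 2100 lower. Slc4a1, a red cell membrane gene, stood first among the higher ones on the scale of CPM plus 5. The ratios that follow are of plain CPM. Slc4a1 was 10.2 CPM at 5 to 20%, 79.7 CPM at 20 to 50% and 494 CPM at 50% or more, a ratio of the outer classes of 48.3 (17.3 to 187). Epb42, the membrane protein 4.2, had 0 and 9 UMIs in the outer classes and was at least 16.1-fold higher, and Trim10, a ubiquitin ligase of red cells, had 1 and 15 UMIs, a ratio of 80.5 (12.4 to 3388). Car2, a carbonic anhydrase, Rsad2, Cdr2, Mkrn1, Bpgm and Cd24a followed, with ratios between 16.6 and 26.8.

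Several of the 10 genes lowest at the high share are known from white blood cells. Irf8, a myeloid and lymphoid transcription factor, had 96 UMIs at 5 to 20% and 0 at 50% or more, at least 5.96-fold lower. Cd69, a lymphocyte activation antigen, had 92 and 0 UMIs, at least 5.72-fold lower. Ccl5, a chemokine of T and NK cells, had 746 and 3, 46.3-fold lower (15.8 to 225). Iqgap1, Cybb, Prrc2c, Tagln, Ngp, Fxyd5 and Kctd12 had 57 to 92 UMIs in the low class and 0 in the high class. Ngp, a neutrophil granule gene, came from 0.641% of all control members. Marked barcodes had at least 2 UMIs of T cell, B cell, Kupffer cell, endothelial or platelet genes, or 1% of UMIs from neutrophil genes. They made up 34.2% of the 5 to 20% class, 37.8% of the 20 to 50% class and 3.70% of the 50% class. Outside the rule they made up 30.8%. Median UMIs in these 4 sets were 2992.5, 2466, 1848.5 and 2973. Outside hemoglobin the medians were 2676.5, 1692.5, 615 and 2972, so that the classes were not matched in depth. Neutrophil genes marked 5.26%, 14.4% and 1.85% of the 3 classes, and T cell genes 18.4%, 10.0% and 0. In the HFD library such genes of any type marked 16.3% of members and 20.1% of other barcodes, and in the CCl4 library 10.3% and 12.0%. No doublets were removed, and the part of other cells sharing a droplet was not tested.

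Over all genes tested, 13.4% were higher at 50% or more and 25.7% lower. A gene needed 50 CPM in either class, and 3 UMIs equal 41.2 CPM in the high class. It could thus enter through the class where it was high, and the medians below describe only genes that passed. By group, 10 of 27 membrane genes were tested. Of these 8 were higher and 1 lower, with a median log2 ratio of 3.56 (3.40 with genes at 0 set to 3 UMIs). For reticulocyte remodelling 13 of 18 were higher and 0 lower (median 2.51), for heme synthesis 6 of 9 and 0 (1.59), for metabolism and antioxidants 8 of 20 and 2 (0.43), and for iron 4 of 11 and 2 (0.33). The cell cycle list went the other way, with 1 of 8 higher and 7 lower (-1.87, or -1.68 at 3 UMIs), and of erythropoietin signalling 0 of 5 were higher and 2 lower (-0.84, or -0.47 and 1 lower at 3 UMIs), beside 25.7% lower over all genes, while transcription factors were split at 3 and 3 of 6. The median over all genes was -0.15. Malat1 was 13884 CPM at 5 to 20%, 15046 CPM at 20 to 50% and 2869 CPM at 50% or more, against 21028 CPM in T cell barcodes. The highest class also held the fewest other UMIs, with medians of 2676.5, 1692.5 and 615 outside hemoglobin, and 353, 355 and 327 genes at 500 such UMIs, where 9 barcodes of the highest class fell short.

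**Figure D3:**
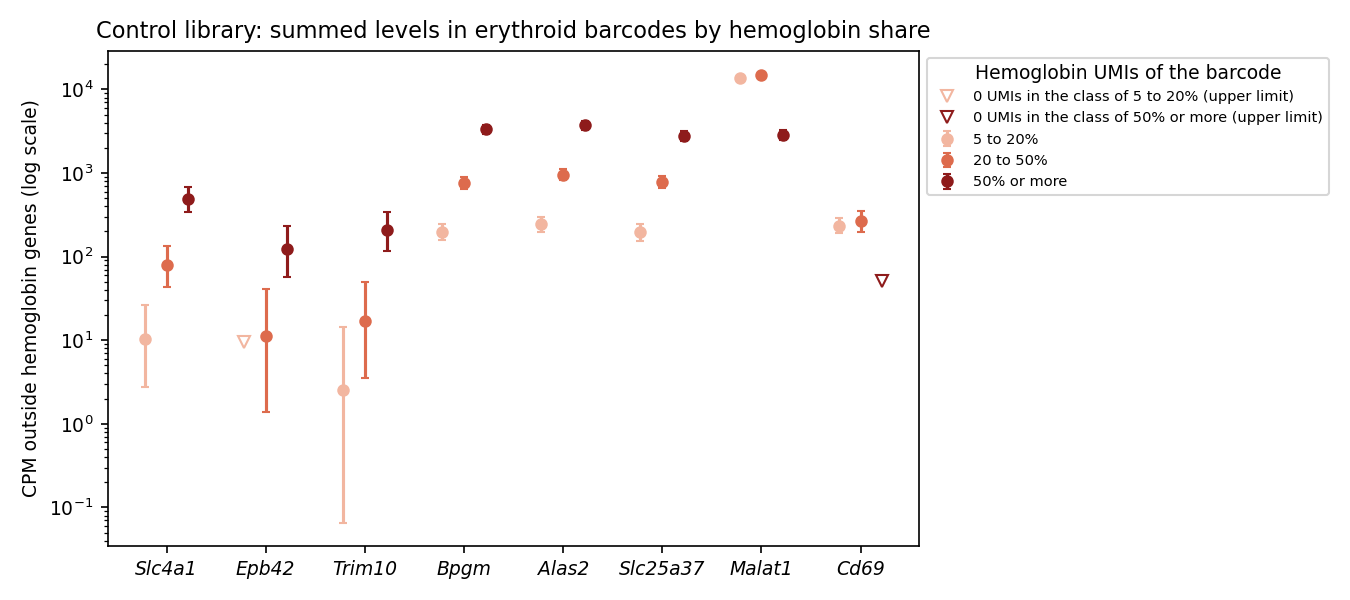
Summed level of 8 genes in control members (CPM outside hemoglobin genes, log scale) by hemoglobin share of the barcode, with exact 95% Poisson intervals; open triangles are upper limits for 0 UMIs. Slc4a1 goes from 10.2 to 494 CPM, while Malat1 ends at 2869 CPM and Cd69 has 0 UMIs in the highest class.

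The same genes were also given per 1000 hemoglobin UMIs, a scale added after the data were seen. On it the intervals of the outer control classes overlapped for 15 of the 18 leading genes named above. Those genes had been chosen by their ratio in the same control members, so nothing is read from their count beside all genes. Some intervals were wide, with 4 UMIs of Slc4a1 and 6 each of Cdr2 and Isg20 in the lowest class. Over all 3603 genes the interval of the highest class lay below that of the lowest for 95.7%, and UMIs outside hemoglobin were 8318 per 1000 hemoglobin UMIs in the lowest class and 536.0 in the highest. Bpgm was 1.66, 1.72 and 1.80 from the lowest to the highest class, Alas2 2.02, 2.15 and 1.99, and Slc25a37 1.64, 1.77 and 1.48. For the other 3 the highest class was lower, with Bnip3l at 1.53 (1.20 to 1.93) in the lowest class and 0.589 (0.467 to 0.733) in the highest, Epb41 at 1.47 (1.14 to 1.86) and 0.765 (0.625 to 0.927), and Ube2l6 at 1.57 (1.24 to 1.98) and 0.846 (0.699 to 1.02). Less the level of T cell barcodes, the outer values were 0.614 and 0.529 for Bnip3l, 1.31 and 0.829 for Ube2l6, and 0.417 and 0.697 for Epb41, which was then the higher in the highest class. For Slc4a1 the values were 0.0851, 0.180 and 0.265 on 4, 14 and 36 UMIs. The Slc4a1 intervals of the outer classes overlapped (0.0232 to 0.218 and 0.186 to 0.367). Overlap of separate intervals does not show that 2 values are equal, and no interval of the ratio was made on this scale between classes.

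Hepatocyte RNA was present in all members. A UMI of Alb, serum albumin, was found in 100% of members and of T cell barcodes in each library. The 21 genes of the hepatocyte list gave a median of 104.5 UMIs in control members with 50% or more hemoglobin (quartiles 91 and 119) and 111.5 in control T cell barcodes (96 and 135), against 883.5 in hepatocyte-rich barcodes, the 25% of other barcodes highest in 7 hepatocyte genes. As a share of UMIs outside hemoglobin, the values for the 50% class and T cell barcodes were 17.2% and 4.69%. Control members with 5 to 20% hemoglobin had a median of 313.5 hepatocyte UMIs (quartiles 111 and 671.5), and those with 20 to 50% had 124.5. In HFD members had a median of 370 hepatocyte UMIs and T cell barcodes 300, and with CCl4 404 and 377.

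**Figure D4:**
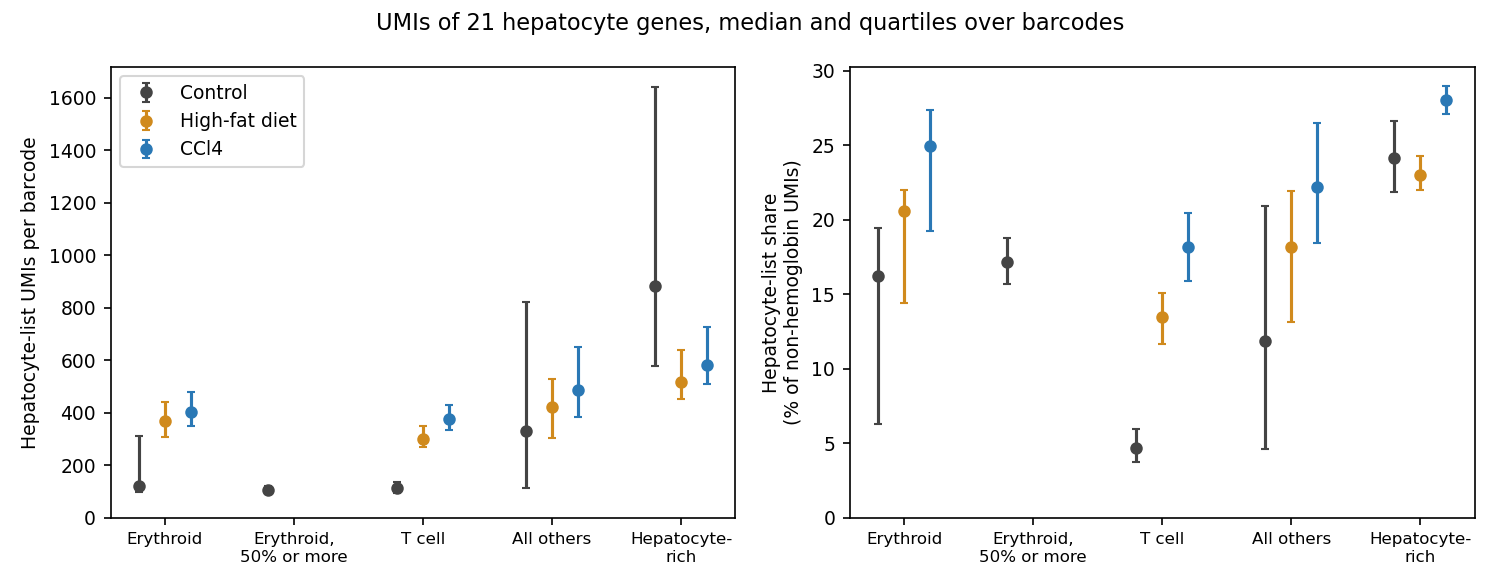
UMIs of 21 hepatocyte genes per barcode (left) and their share of UMIs outside hemoglobin (right, %), as median and quartiles over barcodes in each library. Control members with 50% or more hemoglobin (104.5 UMIs) and T cell barcodes (111.5) lie together on the left and apart on the right.

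Between libraries, HFD and CCl4 members were each set against the same control members. In HFD 248 of 3399 genes were 2-fold or more higher (7.3%) and 545 lower (16.0%), and with CCl4 285 of 3322 were higher (8.58%) and 743 lower (22.4%). Scaled to all UMIs the split turned, with 468 higher and 217 lower in HFD and 409 and 350 with CCl4. Of the 248, 131 were also 2-fold higher in the barcodes outside the rule, and 213 of the 545 were also lower. With CCl4 it was 197 of 285 and 451 of 743. The 10 named genes of each comparison differed in the same direction outside the rule, apart from Jchain. Acaa1b, a peroxisomal thiolase, was 1732 CPM in HFD and 111 CPM in control members, and 1670 and 120 CPM in the barcodes outside the rule. Scd1, a fatty acid desaturase, Inmt, Ehhadh and Hamp2, a hepcidin gene, were also among the 5 highest. Mt1 and Mt2, the metallothioneins, Saa1 and Saa2, acute-phase proteins, and Lcn2, lipocalin 2, were the 5 lowest, with Saa2 at 349 against 18903 CPM in members and 310 against 15800 CPM outside. With CCl4 Hamp2 (375 UMIs against 1), Cyp2b9, Angptl8, Ccdc152 and Jchain led the higher genes, and Saa1, Saa2, Lcn2, Mup11 and Mup17 the lower ones. Jchain, the joining chain of plasma cell immunoglobulin, had 128 UMIs against 2 in members, a ratio of 100.0 (27.1 to 835), and was 0.961-fold outside. All 128 came from 1 barcode, so that the ratio describes that barcode and its interval does not cover it. The Saa and Mup genes belong to families of close copies, so that their single values are uncertain.

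Over the 7 erythroid lists, without the cell cycle, 2 of 70 genes were higher in HFD and 17 lower, with a median log2 ratio of -0.31 against -0.13 over all genes. The lower ones were 24.3% of the genes on the lists and 16.0% of all genes tested. With CCl4 0 of 68 were higher and 21 lower, with medians of -0.57 and -0.30, and the lower ones were 30.9% on the lists and 22.4% of all. These counts cover all members, and only the control library had members with 50% or more hemoglobin. In that class 42 of 79 tested genes of these lists were higher than at 5 to 20%, and 10 were lower. The lists were not compared between libraries within a hemoglobin class. The counts thus do not show less erythroid RNA at an equal hemoglobin share. Of the cell cycle list 6 of 8 genes were lower in HFD and 4 of 7 with CCl4. Lists of other cells went both ways. All 9 tested neutrophil genes were lower in both libraries, with a median log2 ratio of -2.48 in HFD and -4.82 with CCl4 (-3.52 with genes at 0 set to 3 UMIs), as were all 3 of myeloid progenitors, and B cell genes were lower in HFD (3 of 3) and NK cell genes with CCl4 (4 of 4). Hepatocyte genes were higher for 7 of 21 and lower for 2 in HFD and higher for 9 and lower for 3 with CCl4, monocyte genes were higher for 3 of 5 in HFD, and of 3 T cell genes 0 differed 2-fold in HFD. Their part in the lower erythroid and cell cycle counts was not tested. The hemoglobin share moved with this: UMIs outside hemoglobin per 1000 hemoglobin UMIs were 2451 in control members, 9179 in HFD and 6779 with CCl4. This is 3.74 and 2.77 times the control value, and its part in the lower counts was not tested.

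Over all members the direction of Bpgm depended on the scale, and the change of scale moved most genes. Per hemoglobin UMI, all UMIs outside hemoglobin were 3.74 times the control value in HFD and 2.77 times with CCl4. The interval of the ratio lay above 1 for 84.9% and 67.0% of all genes tested. A ratio above 1 on this scale is thus not read as a rise of a gene. In CPM Bpgm was 713 in control members, 388 in HFD and 374 with CCl4. Members with 5 to 20% hemoglobin were 36.5% of control, 95.9% of HFD and 82.6% of CCl4 members. In that control class Bpgm was 200 CPM, under the values of all HFD and all CCl4 members. The direction in CPM thus also depended on which control members were compared. Per 1000 hemoglobin UMIs, the same UMIs that chose the members, Bpgm stood at 1.75 in control members (456 UMIs), 3.56 in HFD (208) and 2.53 with CCl4 (153), which are ratios of 2.04 (1.72 to 2.40) and 1.45 (1.20 to 1.75). Among members with 5 to 20% hemoglobin in each library the ratios were 2.06 (1.57 to 2.72) and 1.55 (1.15 to 2.10). At the level of T cell barcodes 11.3, 12.3 and 4.72 of those Bpgm UMIs would be free RNA, and without them the values were 1.70, 3.35 and 2.46. Mkrn1 was 1.49, 2.58 and 1.97, with ratios of 1.73 (1.43 to 2.10) and 1.32 (1.07 to 1.63).

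For Alas2 and Slc25a37, of heme and iron supply, the intervals held 1. Alas2 was 2.04, 2.29 and 2.00, with ratios of 1.12 (0.922 to 1.36) and 0.981 (0.799 to 1.20), and Slc25a37 was 1.59, 1.95 and 1.66, with ratios of 1.22 (0.986 to 1.51) and 1.04 (0.827 to 1.30). Slc4a1, on 54, 14 and 12 UMIs, gave 1.16 (0.594 to 2.11) and 0.960 (0.468 to 1.82). Of the 18 leading genes named above, the interval of the ratio lay above 1 for 9 in HFD and 4 with CCl4, and below 1 for 0. Over all genes tested it lay above 1 for 84.9% in HFD and 67.0% with CCl4, and below 1 for 1.06% and 4.06%. Among members with 5 to 20% hemoglobin it lay above 1 for 6 and 3 of the 18, and for 29.4% and 16.6% of all genes. The 18 were chosen as highest in the same control members that these ratios divide by. Some had few UMIs, such as Apol11b with 14 in HFD and 12 with CCl4. Their counts beside those of all genes are thus not read as a result about these genes. For genes that T cells express this scale counts the other RNA of the droplet too: at the T cell level 80.9 of 250 control Epb41 UMIs would be such RNA. With 1 library each, these ratios compare the libraries and not the treatments.

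**Figure D5:**
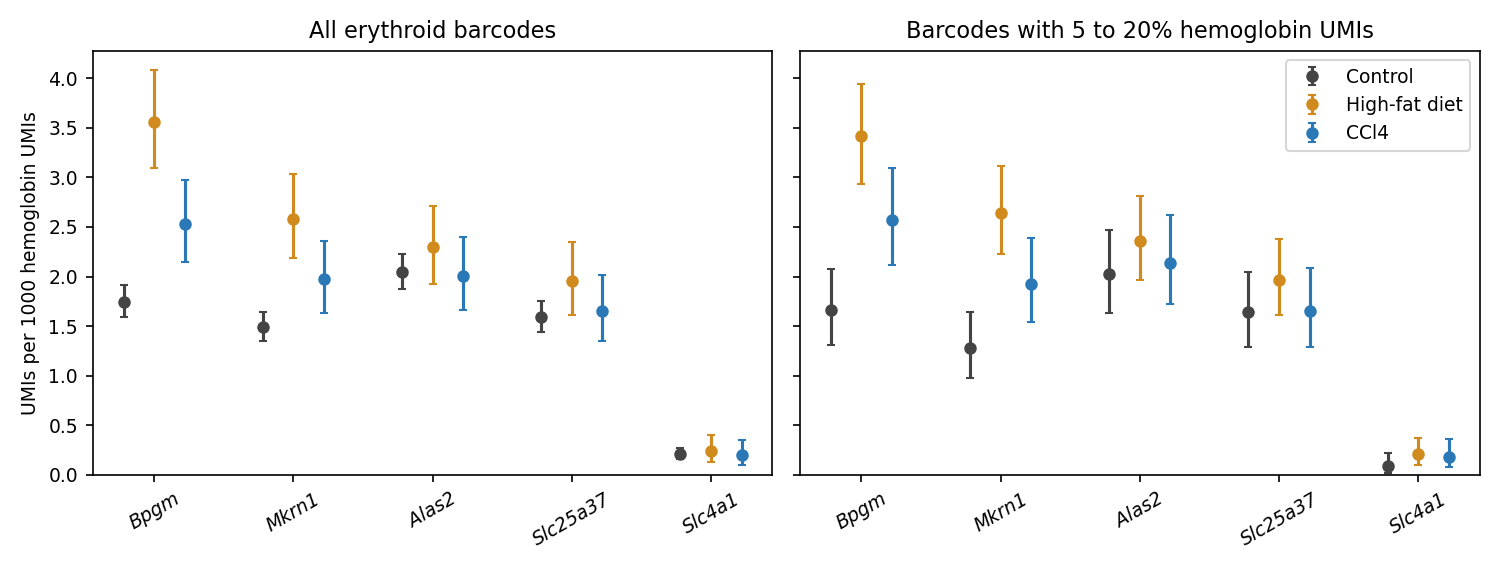
UMIs per 1000 hemoglobin UMIs of 5 erythroid genes in all members (left) and in members with 5 to 20% hemoglobin (right), with exact 95% Poisson intervals, for the 3 libraries. Bpgm stands at 1.75, 3.56 and 2.53 in the left panel, while the intervals of Alas2 overlap.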

How the data were processed

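The values are unnormalized UMI counts that the authors obtained from 10x 3′ libraries with Cell Ranger 7.2.0, for barcodes it kept. The paper names mm10 and the submitters' processing notes GRCm39, and 3276 of 55357 identifiers were not in the GENCODE M21 table for GRCm38, so that no gene coordinates are given as those of the counts. Identifiers with one symbol were summed. Members, gene lists and tests were chosen with earlier results of these data known.

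Counts were summed over barcodes and scaled to CPM outside the 4 hemoglobin genes. Genes with at least 50 CPM in either sum were compared by the ratio of CPM plus 5, and 2-fold or more was called. Intervals are exact at 95% (Poisson, Clopper-Pearson, conditional for ratios of CPM), and a count of 0 allows up to 3. Named genes were those of the erythroid lists, the 20 highest ratios in control members with a UMI in at least 10% of them, the 10 highest and 10 lowest between hemoglobin classes and the 5 highest and 5 lowest between libraries. Genes of this rule that are not reported here were left out of the marker set and of the counts over leading genes. No clusters were made, and no doublets were removed. Between 36 and 52 barcode sequences were shared by each pair of libraries, 0 of them as members of both. The steps were tested on simulated data. Python 3.11.15, numpy 2.4.6, scipy 1.17.1, pandas 2.3.3 and matplotlib 3.10.9 were used.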

Additional observations from a re-analysis of the deposited data

Results flagged for a closer look

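The hemoglobin rule left out 37 control barcodes with 3 or more of 8 erythroid genes (Slc4a1, Bpgm, Alas2, Klf1, Gata1, Epb42, Rhag and Car2), a set chosen after its values were seen. They count among the other barcodes. They held 88 of the library's 117 Klf1 UMIs and 126 of its 130 Rhag UMIs, against 0 of each in the members, and both genes took part in choosing the set. Members held Slc4a1, Bpgm, Alas2, Epb42 and Car2, with Bpgm at 713 CPM against 31.7 CPM in the 37 and Alas2 at 834 against 34.5 CPM, while Slc4a1 was 84.4 against 121 CPM, Epb42 17.2 against 48.9 CPM and Car2 93.8 against 2011 CPM. On the high-fat diet 0 barcodes outside the rule met this condition, and with CCl4 there were 2, with 0 hemoglobin UMIs. Genes that had not chosen the 37 stood there too, with 147 of 159 Ermap, 102 of 103 Rhd, 210 of 234 Hemgn, 114 of 202 Tal1 and 1050 of 1140 Car1 UMIs. Mki67 was found in 26 of the 37.

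Their hemoglobin share had a median of 0.0159% and a highest value of 4.72%, and their UMIs a median of 15105 (1768 to 112469), against 2159.5 in members. The largest barcode held 3395 UMIs of Pf4, a platelet and megakaryocyte gene. In 8 of the 37 hemoglobin was at least 1% of UMIs. Among those 8, Hbb-bt was 24.3% to 89.1% of beta globin (median 46.6%), against 18.5% as the median of control members, and Hba-a2 was 1.72% to 32.1% of alpha globin (median 10.7%), against 30% to 56% in control members. Hba-a1 and Hba-a2 cannot be told apart well by sequence, and the cause was not tested.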

How the results depend on the processing

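With hemoglobin at 2% or more, members were 3.15%, 2.74% and 2.13% of barcodes (control, high-fat diet, CCl4) and other barcodes held 0.0213%, 0.0228% and 0.0180% hemoglobin. At 10% or more these were 2.33%, 0.709% and 1.06%, and 0.0628%, 0.137% and 0.0722%, with 37 genes lower in control members. Without the 8% of barcodes with the most UMIs, a stand-in for doublets, free RNA was 0.0334% (control) and 0.0528% (high-fat diet). Scaled to all UMIs, control members had 23 genes higher, 163 lower and 13 genes of the 8 lists higher (against 21), the high hemoglobin class 43 higher and 2100 lower, the high-fat diet 468 and 217, and CCl4 350 lower. With a minimum of 10 CPM the higher and lower counts were 144 and 101 (control members), 1235 and 3649 (high class), 527 and 1538 (high-fat diet) and 612 and 2042 (CCl4). With members at 20% or more, added after the data were seen, they were 135 and 88. The ratios of plain CPM in control members were then 97.0 for Bpgm, 59.0 for Alas2 and 107 for Slc4a1, against 45.5, 27.9 and 45.1. With the cut at 2% that of Slc4a1 was 92.7. Among the main results, 71 planned values and 5 added ones stayed within 1.5 times the reported count, or for a share within its interval, while 31 and 2 did not. Counts among the former still went from 248 to 369 and from 545 to 806 (high-fat diet, cut at 10%). The ratios of Slc4a1, Bpgm and Alas2 were tallied apart. Of these, 15 planned values stayed within the interval, while 9 planned and 3 added ones did not. Scaling to all UMIs turned the balance of higher and lower genes in both comparisons between libraries, and a cut at 10% put the high-fat diet share of members below that with CCl4. Comparing only members of 5 to 20% in both libraries, also added later, gave 286 and 576 genes on the high-fat diet and 313 and 739 with CCl4. No paired analysis was possible because each condition was 1 library, and for the same reason no library could be left out.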
